A study of Mus musculus with 6 samples.

Results

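Genes of the endoplasmic reticulum that encode its chaperones, its disulfide isomerases and its stress factors were followed in whole brains that lack the neural cell adhesion molecule NCAM. The genes are Hspa5, Hsp90b1, Canx, Calr, Pdia3, Pdia4, Pdia6, Xbp1, Creld2 and Manf, 10 of 8251 genes that the array annotation names singly. All 13 probe sets annotated to one of them alone were taken, 12 of which were bright enough to be compared. Earlier results of the knockout comparison were known when the 10 genes were picked, so their knockout differences are given as a description without a test. The knockout group held 3 male mice with a constitutive knock-out of the Ncam gene, 1 aged 3 months and 2 aged 2 months. The wild-type group held 3 male mice of the same C57BL/6J background and the same ages. RNA of each total brain went to its own Affymetrix array, so n = 3 animals per group, and the deletion was present in every cell type.

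The endoplasmic reticulum is where secreted and membrane proteins are folded. Its chaperones bind unfolded chains, its lectins calnexin and calreticulin hold glycoproteins, and its disulfide isomerases form and shuffle disulfide bonds. When unfolded protein builds up, the sensors IRE1, PERK and ATF6 start the unfolded protein response, which raises many of these genes. The transcription factor Xbp1 is made active by splicing of its own mRNA, and the array signal does not separate the spliced form. Several of these promoters carry the endoplasmic reticulum (ER) stress response element, a CCAAT box and a CCACG box at a fixed spacing, through which ATF6 acts together with the factor NF-Y.

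The promoter windows of the genes are shown first because the element is what the best-known members have in common. RefSeq windows of 250 bases before to 50 bases after the annotated start (GRCm38.p6) were found for 9 of the 10 genes, all but Manf. The motif searched was CCAAT, then 9 bases of any kind, then CCACG, on both strands and by exact letters only. It was present in 6 of the 9 windows (Hspa5, Hsp90b1, Pdia6, Canx, Calr and Creld2), against 39 of all 32851 windows, 0.119%. The 7 matches lay between -212 and -47 from the start, 4 on the strand of the gene and 3 on the other, and each overlaps a CCAAT box by construction. They are written 5′ to 3′ on the strand of the match, with the CCAAT and CCACG letters in capitals and positions counted from 0 at the first transcribed base.
Hspa5 element at -65 to -47: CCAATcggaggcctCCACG
Hsp90b1 element at -212 to -194: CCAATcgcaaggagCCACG
Hsp90b1 element at -107 to -89: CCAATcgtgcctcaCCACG
Pdia6 element at -98 to -80: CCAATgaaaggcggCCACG
Canx element at -145 to -127: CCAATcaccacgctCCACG
Calr element at -162 to -144: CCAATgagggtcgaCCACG
Creld2 element at -126 to -108: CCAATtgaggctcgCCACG

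The windows of Pdia3 and Pdia4 held CCAAT boxes but no exact match to the full element, and that of Xbp1 held neither. Near matches were not looked for. A CCAAT box, with or without the element, was found in 8 of the 9 windows and in 37.4% of all windows. Neither ATTGG and CCACG with 1 base between them, known as ERSE-II, nor TGACGTGG, the core of the unfolded protein response element, was found in the 9 windows. They occur in 0.0365% and 0.676% of all windows. The GC content of the 9 windows had a median of 66.7%, and that of all windows 52.7%. The windows of 4 genes follow in the direction of transcription, with the letters of the element in capitals. Hspa5 and Canx carry an exact match, and Pdia3 and Pdia4 do not. Whether the element goes with the knockout differences was not tested.
Hspa5 promoter, chr2:34771840-34772139, plus strand: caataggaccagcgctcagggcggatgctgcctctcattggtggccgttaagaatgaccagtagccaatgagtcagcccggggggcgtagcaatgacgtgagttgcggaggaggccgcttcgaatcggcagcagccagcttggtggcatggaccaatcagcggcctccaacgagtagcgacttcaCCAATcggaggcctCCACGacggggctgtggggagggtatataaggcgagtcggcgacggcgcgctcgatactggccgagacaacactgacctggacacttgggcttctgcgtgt
Pdia3 promoter, chr2:121413652-121413951, plus strand: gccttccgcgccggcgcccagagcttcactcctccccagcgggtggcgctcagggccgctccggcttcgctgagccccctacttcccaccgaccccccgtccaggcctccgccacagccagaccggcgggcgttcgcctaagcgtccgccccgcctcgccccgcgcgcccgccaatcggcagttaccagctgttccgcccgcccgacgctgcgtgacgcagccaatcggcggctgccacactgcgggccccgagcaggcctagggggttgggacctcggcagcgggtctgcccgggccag
Pdia4 promoter, chr6:47813463-47813762, minus strand: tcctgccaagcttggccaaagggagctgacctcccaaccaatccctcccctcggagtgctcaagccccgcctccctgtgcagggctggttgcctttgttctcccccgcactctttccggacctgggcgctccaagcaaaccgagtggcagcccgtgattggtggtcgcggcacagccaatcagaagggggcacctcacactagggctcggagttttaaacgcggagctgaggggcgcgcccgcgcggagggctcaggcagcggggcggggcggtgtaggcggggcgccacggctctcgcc
Canx promoter, chr11:50325624-50325923, minus strand: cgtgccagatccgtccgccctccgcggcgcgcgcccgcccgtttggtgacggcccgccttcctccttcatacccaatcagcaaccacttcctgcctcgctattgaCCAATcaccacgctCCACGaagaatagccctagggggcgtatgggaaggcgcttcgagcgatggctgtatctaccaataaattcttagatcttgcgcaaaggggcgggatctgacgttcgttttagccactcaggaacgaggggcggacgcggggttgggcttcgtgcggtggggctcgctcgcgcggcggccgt

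**Figure D1:**
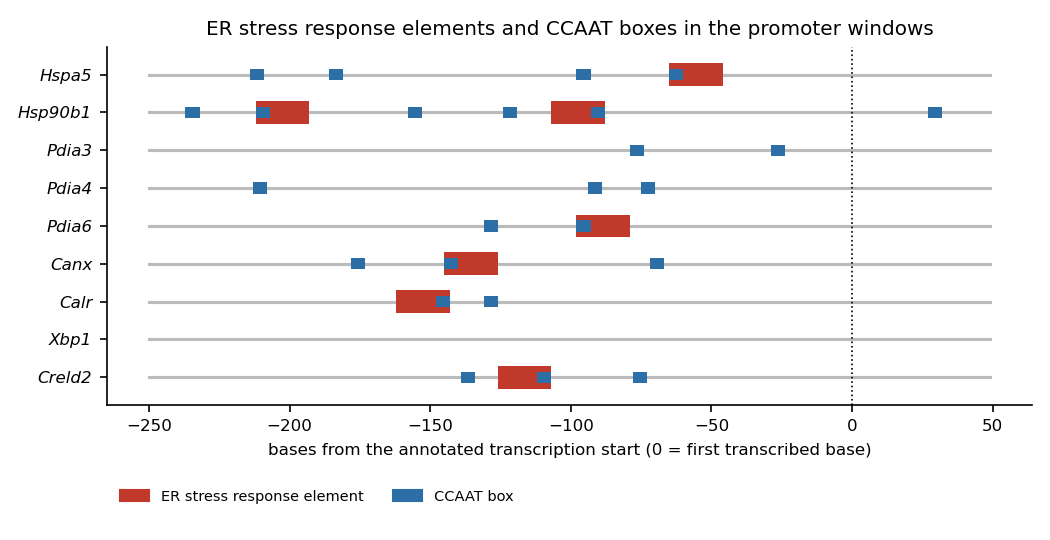
Positions of the ER stress response element (red) and of CCAAT boxes (blue) in the 9 promoter windows, as bases from the annotated transcription start on the x axis with 1 gene per row. An exact match to the element is present in 6 windows and was not found in those of Pdia3, Pdia4 and Xbp1.

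Array signals are linear intensities per probe set as deposited, and a difference is the knockout mean minus the wild-type mean of log2(signal + 16), with the standard error of a linear model. Ncam1 read 327, 276 and 209 in knockout brains and 1216, 1346 and 1448 in wild-type brains (log2 difference -2.26 ± 0.15, limma adjusted p = 0.00076). Neuronal, astrocyte and oligodendrocyte markers read above the filter limit on every array and no marker was at 0. Of 7453 tested probe sets 2 passed at an adjusted p under 0.05, 0.0268%, and 0 of the 12 member probe sets were among them. Signals did not overlap between the genotypes for 12.9% of tested probe sets, with knockout above wild type for 6.08% and below it for 6.8%. In whole brain RNA, fewer cells of a type and less RNA per cell cannot be told apart.

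Some arrays differed in tissue content and RNA measures, and their part in the member values was not tested. The summed signal of 6 of 6 pituitary markers was 15600.4 in knockout replicate 1 and 1171 and 1198 in the other knockout brains, against 858 to 980.4 in wild-type brains. Gh read 11613 in that animal and at most 410 on any other array. The summed signal of 7 of 7 cerebellar markers was 1523 in knockout replicate 2 and 6960 and 7856 in the others, against 7336 to 8094 in wild-type brains, and Gabra6 read 11.8 in that animal. The summed signals of 4 of 4 astrocyte markers (6980 to 8045 in knockout brains, 8145 to 8959 in wild-type brains) and of 3 of 4 oligodendrocyte markers (6660 to 6885 in knockout brains, 7340 to 7509 in wild-type brains) did not overlap between the genotypes. Taken singly, Aqp4 was the only astrocyte marker without overlap. Aldoc, the largest part of that sum, read 5285 to 5953 in knockout brains and 5837 to 6939 in wild-type brains. Slc1a2 overlapped too, and Gfap had the higher mean in knockout brains, 704 against 674. Of the oligodendrocyte markers Mbp and Mag did not overlap and Mog did. Neuronal markers (4 of 4) overlapped, with 14717 to 15451 in knockout brains, against 15227 to 15514 in wild-type brains, as did 3 of 5 choroid plexus markers (1596 to 2477 in knockout brains, 2005 to 2345 in wild-type brains). For 2 of 5 blood and plasma cell markers the sums were 3786 to 4362 in knockout brains, against 3285 to 4636 in wild-type brains. The 3 liver markers, taken as those of a tissue that should be absent, did not pass the filter. They summed to 88.2 to 101 in knockout brains, against 52.1 to 77.9 in wild-type brains. For the Gapdh control, a sign of RNA integrity, the 3′ signal over the 5′ signal was 0.811 to 0.826 on knockout arrays, without overlap with the 0.768 to 0.798 of wild-type arrays. The same ratio of the b-actin control overlapped, with 1.14 to 1.22 on knockout arrays and 1.08 to 1.20 on wild-type arrays.

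Hspa5, the Hsp70 chaperone BiP that also holds the stress sensors inactive, had the clearest separation among the chaperones. Its signal was 3374 at 3 months and 2494 and 2560 at 2 months in knockout brains, against 1964 at 3 months and 1876 and 2075 at 2 months in wild-type brains. All 3 knockout animals lay above every wild-type animal, and the 3-month-old knockout animal stood well above the other two. The means were 2809 ± 490 in knockout and 1972 ± 99.8 in wild-type brains (SD, n = 3 each), a log2 difference of 0.49 ± 0.11 or 1.41-fold.

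Hsp90b1, the Hsp90 of the endoplasmic reticulum (GRP94), differed little. It read 2081 at 3 months and 1987 and 2028 at 2 months in knockout brains, against 1795 at 3 months and 1898 and 2017 at 2 months in wild-type brains. The groups overlapped, and the log2 difference was 0.09 ± 0.07. Its coefficient of variation was 2.31% in knockout and 5.84% in wild-type brains, the steadiest signal of the 9 genes in the knockout group.

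The lectin chaperone Canx, calnexin, read lower in knockout brains. Its brighter probe set read 572 at 3 months and 463 and 505 at 2 months in knockout brains, against 668 at 3 months and 675 and 567 at 2 months in wild-type brains. Only the 3-month-old knockout animal and wild-type replicate 2 crossed, by a narrow margin, and the log2 difference was -0.30 ± 0.11. The second Canx probe set pointed the same way, with 163 at 3 months and 174 and 193 at 2 months in knockout brains, against 191 at 3 months and 220 and 196 at 2 months in wild-type brains (log2 difference -0.18 ± 0.12). Calr, calreticulin, the soluble relative of calnexin, read 6.84, 27.1 and 18.9 in knockout brains and 11.8, 19.0 and 5.68 in wild-type brains. Its 1 probe set lay below the filter limit of 72.2 on all 6 arrays and was not compared.

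Among the disulfide isomerases, Pdia3 and Pdia4 had higher knockout signals without overlap, and Pdia6 did not. Pdia3 (ERp57), which works with calnexin and calreticulin on glycoproteins, read 682 at 3 months and 891 and 995 at 2 months in knockout brains. It read 440.0 at 3 months and 645 and 673 at 2 months in wild-type brains. The 3-month-old animal was the lowest of its group in both genotypes, and the lowest knockout signal exceeded the highest wild-type signal by a narrow margin. The log2 difference was 0.54 ± 0.18 or 1.46-fold.

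Pdia4 (ERp72), an isomerase that binds with BiP in a larger folding complex, read 265 at 3 months and 288 and 267 at 2 months in knockout brains. It read 142 at 3 months and 218 and 186 at 2 months in wild-type brains. Knockout values were close together and all above the wild-type values, which spread more, with a coefficient of variation of 4.77% in knockout and 20.9% in wild-type brains. The log2 difference of 0.57 ± 0.15 was 1.48-fold.

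Pdia6 (P5), another isomerase that works with BiP, was measured by 3 probe sets. The brightest read 655 at 3 months and 538 and 644 at 2 months in knockout brains, against 666 at 3 months and 590.4 and 585 at 2 months in wild-type brains, a log2 difference of -0.01 ± 0.10. The other probe sets gave 0.11 ± 0.14 and 0.08 ± 0.12, and the groups overlapped on all 3. The one at 0.11 has the suffix of a less specific kind and differed by 0.41 between the 3-month-old animals and by -0.05 at 2 months.

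The stress factors Xbp1, Creld2 and Manf had overlapping groups, and in both genotypes the 3-month-old animal was the highest. Xbp1, the transcription factor downstream of IRE1, read 1166 at 3 months and 856 and 1025 at 2 months in knockout brains, against 936 at 3 months and 717 and 815 at 2 months in wild-type brains (log2 difference 0.30 ± 0.13). Creld2, a secreted protein induced by stress of this compartment, read 276 at 3 months and 203 and 229 at 2 months in knockout brains. It read 214 at 3 months and 142 and 145 at 2 months in wild-type brains, a log2 difference of 0.47 ± 0.17. At each age the knockout signals of both genes were above the wild-type ones, and the overlap of the groups came from the 3-month-old wild-type animal. Manf, a neurotrophic factor that resides in the endoplasmic reticulum and is secreted under stress, read 861 at 3 months and 531 and 699 at 2 months in knockout brains. It read 741 at 3 months and 578 and 567 at 2 months in wild-type brains, with a log2 difference of 0.13 ± 0.17. Knockout replicate 1 was the lowest of all 6 arrays for Manf.

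**Figure D2:**
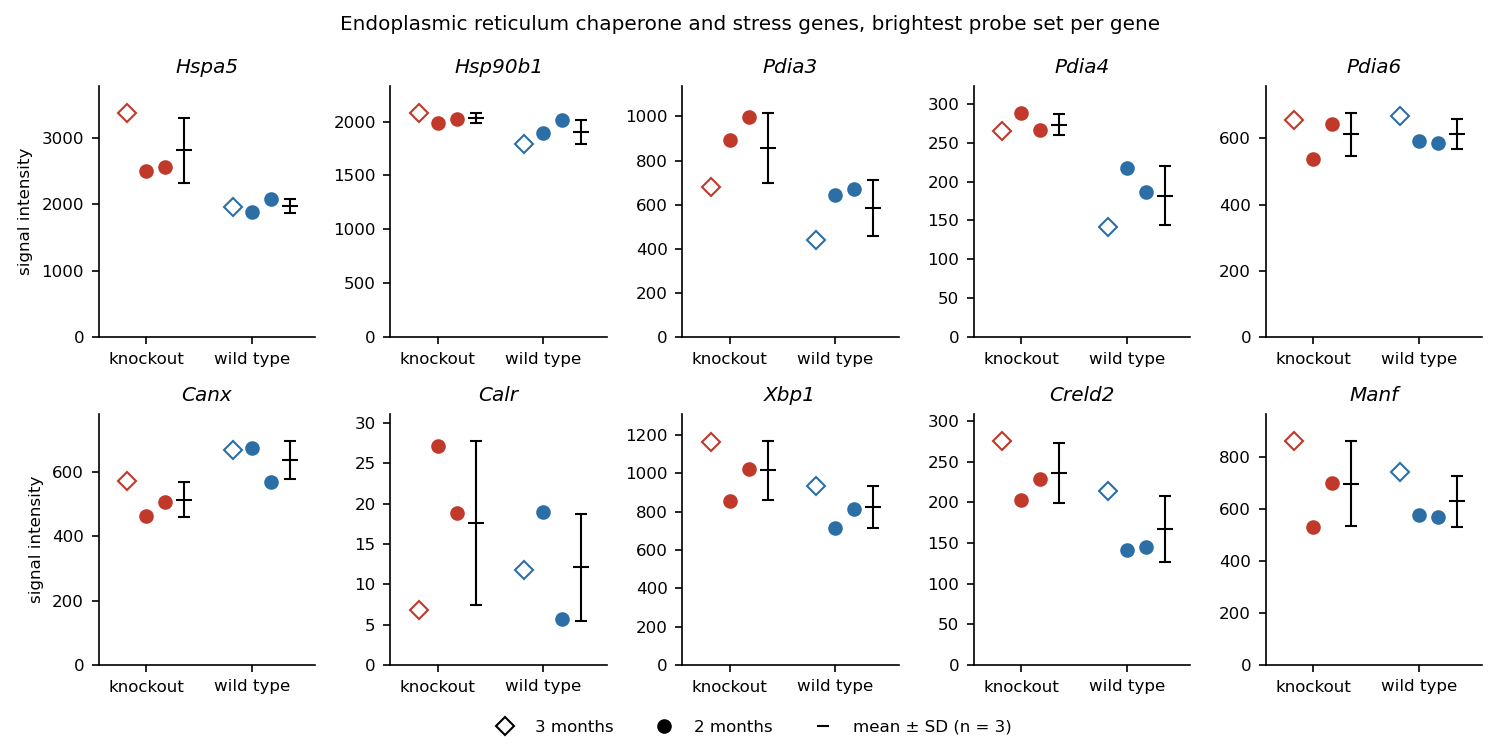
Signal intensity (linear y axis from 0) of the brightest probe set of each of the 10 genes in knockout (red, left) and wild-type brains (blue, right), with open diamonds for 3-month-old and filled circles for 2-month-old animals and the mean ± SD beside them (n = 3). Hspa5, Pdia3 and Pdia4 have no overlap between the genotypes, and Xbp1, Creld2 and Manf are highest at 3 months within each genotype.

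Over the 9 compared genes, by the brightest probe set of each, 7 had higher and 2 lower knockout means, and the median log2 difference was 0.30, beside 0.00 over all tested probe sets. Knockout signals lay above wild-type signals without overlap for 3 of them, Hspa5, Pdia3 and Pdia4, and below for 0. Over all tested probe sets the shares were 6.08% above and 6.8% below. These values chose the genes, so nothing is read from the counts. The genes did not rank the animals in one order. The median deviation from the wild-type mean was 0.46, 0.07 and 0.32 in knockout replicates 3, 1 and 2, against 0.07, -0.05 and -0.01 in wild-type replicates 3, 1 and 2. Knockout replicate 3, aged 3 months, had the highest signal of all 6 arrays for 5 genes. Knockout replicate 1 and wild-type replicates 1 and 3 each had the lowest signal for 3. The 2-month-old animals alone gave a median difference of 0.29, and the single 3-month-old knockout and wild-type animals gave 0.31. At 2 months 8 genes were higher and 1 lower, and at 3 months 7 were higher and 2 lower. Without knockout replicate 1, the animal with high pituitary signal, the log2 differences of Hspa5, Pdia3, Pdia4, Creld2, Xbp1 and Canx were 0.57, 0.50, 0.53, 0.57, 0.41 and -0.23. Without knockout replicate 2, the animal with low cerebellar signal, they were 0.55, 0.43, 0.58, 0.49, 0.28 and -0.29. Without knockout replicate 3, the 3-month-old animal, they were 0.36, 0.69, 0.59, 0.36, 0.19 and -0.38. Leaving out wild-type replicate 3, also aged 3 months, gave 0.49, 0.35, 0.41, 0.65, 0.39 and -0.27. Manf, at 0.13 with all arrays, had 0.31 without knockout replicate 1 and -0.03 without knockout replicate 3.

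**Figure D3:**
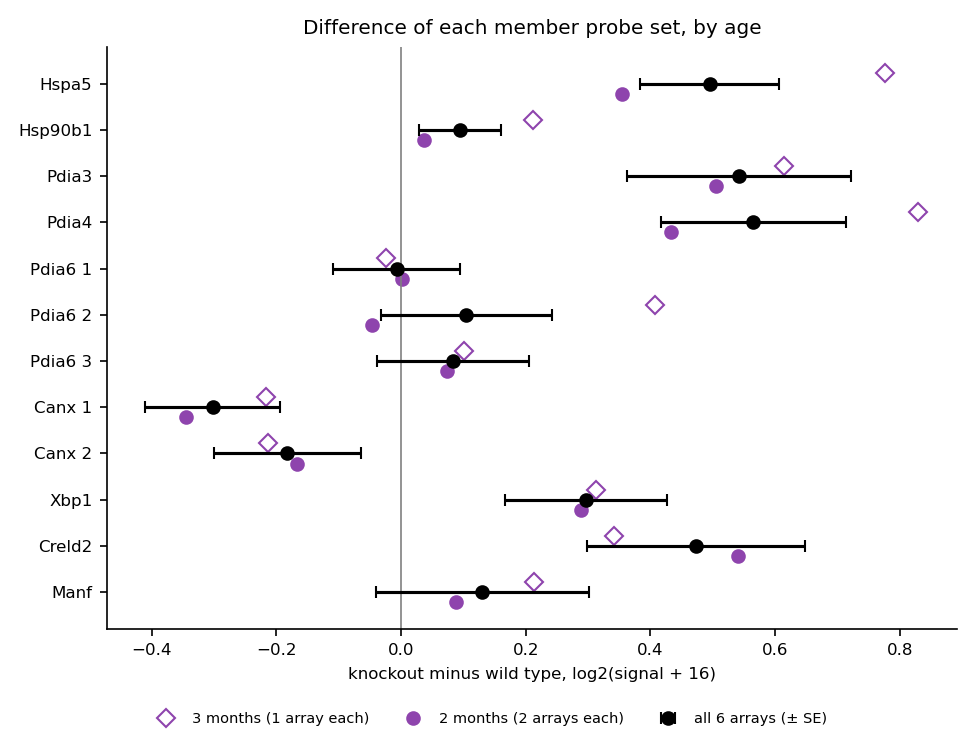
Knockout minus wild-type difference on the log2(signal + 16) scale (x axis) for each of the 12 compared member probe sets, from all 6 arrays (black, ± SE), from the single pair of 3-month-old animals (open diamonds) and from the 2-month-old animals (filled circles). Hspa5 has 0.35 at 2 months and 0.78 at 3 months, and both Canx probe sets are below 0 at each age.

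Age was compared over the same 6 animals, and each genotype held 1 animal of 3 months and 2 of 2 months. That heat shock and folding genes together read highest in the 3-month-old knockout animal was known when the 10 genes were picked, so their age differences are a description. The arrays of both 3-month-old animals carry the replicate number 3, so age cannot be told apart from anything else these 2 animals shared. Pdia3 was lower at 3 months, by a log2 difference of -0.51 ± 0.08, and the shift was -0.46 in knockout and -0.57 in wild-type animals. Manf (0.43 ± 0.11), Creld2 (0.43 ± 0.12) and Xbp1 (0.30 ± 0.10) were higher at 3 months. In limma 0 of the 12 member probe sets passed after adjustment over all probe sets and 4 had an unadjusted p under 0.05, beside 12.4% of all tested probe sets, and nothing is read from these counts.

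The age shift had the same sign in both genotypes for these 4 genes. Creld2 differed by 0.33 between the 3-month-old and the 2-month-old knockout animals and by 0.53 between the wild-type ones, Manf by 0.49 in knockout and 0.36 in wild-type animals, and Xbp1 by 0.31 in knockout and 0.29 in wild-type animals. Hspa5 differed by 0.41 in knockout and by -0.01 in wild-type animals, for an age difference of 0.20 ± 0.10. Pdia4 had -0.06 in knockout and -0.46 in wild-type animals, with an age difference of -0.26 ± 0.13. Hsp90b1, Pdia6 and Canx, by their brightest probe sets, had age differences of -0.04 ± 0.07, 0.16 ± 0.09 and 0.17 ± 0.10. The dimmer Pdia6 probe sets gave 0.12 ± 0.14 and -0.12 ± 0.12, and the dimmer Canx probe set gave -0.13 ± 0.12. Over all genes 2 probe sets, 0.0268%, passed, both higher at 3 months. They were Dusp1 (1.08 ± 0.08, adjusted p = 0.0113) and Fos (1.93 ± 0.19, adjusted p = 0.0363), genes of the immediate response to neuronal activity, named here after their values were seen. With no filter 1 probe set passed, and with no intensity trend 0 passed.

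With age in the model, the sums of squares of each gene over the 6 arrays split into genotype, age, their interaction and a residual. For Pdia3 54.6% fell to genotype, 43.1% to age and 1.73% to the residual. Creld2 split in a similar way, with 55.1%, 40.5% and 2.22%, although the age differences of the 2 genes had opposite signs. Genotype took 74.5% for Hspa5 and 73.6% for Pdia4, and age took 69.6% for Manf. The median over all tested probe sets was 15.3% for genotype, 20.0% for age and 28.6% for the residual. The standard errors of the genotype difference were smaller with age as a covariate, 0.08 for Pdia3 and 0.11 for Creld2, and the differences themselves were the same. The genotype shares are a description, since the genes were chosen on that comparison.

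**Figure D4:**
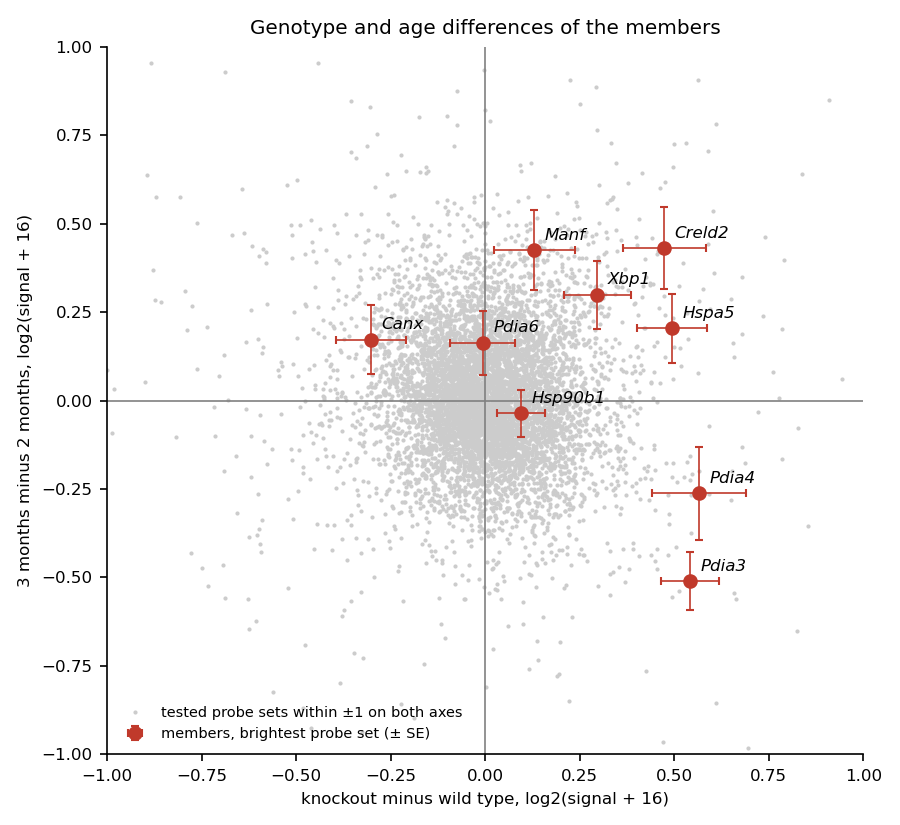
Age difference (3 months minus 2 months, y axis) against genotype difference (knockout minus wild type, x axis), both on the log2(signal + 16) scale with age in the model, for 9 genes (red, ± SE) over the tested probe sets that lie within ±1 on both axes (grey). Pdia3 and Pdia4 lie at higher knockout and lower 3-month signal, and Creld2, Xbp1 and Manf at higher knockout and higher 3-month signal.

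The knockout difference was also set side by side at the 2 ages. The high reading of the 3-month-old knockout animal was known beforehand and enters these values, so they are a description. Hspa5 had a log2 difference of 0.78 at 3 months and 0.35 ± 0.08 at 2 months, and the difference between the 2 was 0.42 ± 0.13. Pdia4 had 0.83 at 3 months and 0.43 ± 0.13 at 2 months, a difference of 0.40 ± 0.23. For Pdia3 the values at 3 months and at 2 months were 0.61 and 0.51 ± 0.09, for Xbp1 0.31 and 0.29 ± 0.12, and for Creld2 0.34 and 0.54 ± 0.14. In limma's interaction term 0 of the 12 member probe sets passed after adjustment, beside 0.0268% of all tested probe sets, and 1 had an unadjusted p under 0.05, beside 5.7%. With 1 animal per genotype at 3 months, the standard errors rest on the spread of the 2-month-old animals and, through limma's moderation, on that of the other probe sets.

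The profile of Hspa5 over the 6 arrays was set against all other tested probe sets by the root mean square difference of their centred log2 values. Among the other genes Xbp1 was closest to it (0.16), with 0.845% of tested probe sets closer still, followed by Creld2 (0.19, with 2.47% closer). Next came a dimmer Pdia6 probe set (0.23, with 10.6% closer), Hsp90b1 (0.24, 11.8%) and Manf (0.25, 15.1%), all with overlapping genotypes. The other Pdia6 probe sets had 29.1% and 31.4% closer. Pdia4 (0.25) had 15.2% closer and Pdia3 (0.35) had 68.3% closer, although both separate the genotypes as Hspa5 does. The values were not scaled to equal spread, so a profile that varies little, such as that of Hsp90b1, can lie near. Canx was far, with 89.0% of probe sets closer by its brighter probe set. Outside the 10 genes, the 5 closest named probe sets began with Ncoa3, a coactivator of nuclear receptors (0.08), and Krt33b, a hair keratin (0.09). Then came Znrf1, a ubiquitin ligase (0.09), Mrpl46, a protein of the mitochondrial ribosome (0.09), and Orc6, a subunit of the origin recognition complex (0.10). In wild-type brains Ncoa3 read 75.0 to 91.1 and Krt33b 74.4 to 77.0, near the filter limit of 72.2. The Krt33b probe set has the suffix of a less specific kind. Genotype took 74.5% of the sums of squares of Hspa5 over the 6 arrays. Earlier results of the knockout comparison, and the high reading of the oldest knockout animal, were known when the 10 genes were picked. The choice of genes can therefore have helped to set how near they lie to Hspa5. Whether they are regulated together was not tested. Likeness over 6 arrays is a description of these arrays.

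The other genes of the pathway gave no call. From 10 lists, 172 genes beyond the 10 were compared, and 0 passed in either direction after adjustment over all probe sets. At an unadjusted p under 0.05 in limma 3 were higher and 7 lower, 5.81% of the 172, beside 6.94% of all tested probe sets. The medians of the lists lay between -0.08 and 0.06. Signals did not overlap between the genotypes for 11 genes above and 10 below, 12.2%, where all probe sets gave 12.9%.

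Closest in function to the chaperones, 12 further ER chaperones and cochaperones had a median log2 difference of 0.06, with 9 higher and 3 lower means and 0 called. Dnajc10, a reductase that works with BiP, read 634, 742 and 767 in knockout brains and 793, 852 and 787 in wild-type brains (-0.18 ± 0.09). The collagen chaperone Serpinh1 had 0.27 ± 0.19. Of 12 other isomerases and oxidases (median -0.04) 0 were called, with Selenof, a selenoprotein of the folding cycle, at -0.17 ± 0.06 and Prdx4, a peroxiredoxin of this compartment, at 0.26 ± 0.12. The 17 sensors and regulators of the unfolded protein response had a median of -0.03 and 0 called. Ppp1r15a and Ppp1r15b, which steer the phosphatase of the translation factor eIF2alpha, had -0.35 ± 0.19 and 0.20 ± 0.10.

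The target genes of PERK and ATF4, which include amino acid transporters and synthetases, had a median of -0.04 over 18 genes, with 5 higher and 13 lower means and 0 called. The transporter Slc7a5 read 902, 849 and 843 in knockout brains and 1035, 1055 and 1007 in wild-type brains, below without overlap (-0.25 ± 0.07, adjusted p = 0.538 in limma). Asparagine synthetase, Asns, had -0.16 ± 0.07 by its brighter probe set and -0.05 ± 0.24 by another. Genes of ER-associated degradation had a median of -0.02 over 13, with Os9, a lectin of that route, at -0.64 ± 0.30 and the ubiquitin ligase Rnf5 at -0.15 ± 0.08. The translocon list had -0.01 over 15. There Sec62 read 449, 443 and 430 in knockout brains and 534, 577 and 553 in wild-type brains by its brightest probe set (-0.32 ± 0.08, adjusted p = 0.463), while its other probe sets gave 0.11 ± 0.21 and 0.19 ± 0.11. The signal recognition particle receptor Srpr had 0.10 ± 0.09 by one probe set and -0.21 ± 0.17 by the other.

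N-glycosylation genes had a median of 0.02 over 16, with Dad1, a subunit of the oligosaccharyltransferase, at -0.18 ± 0.07 by its brighter and 0.13 ± 0.21 by its dimmer probe set, and Pmm1, a phosphomannomutase, at -0.14 ± 0.11. Transport between the endoplasmic reticulum and the Golgi had -0.08 over 20 genes, with the coat protein Sec31a at 0.13 ± 0.07 and the cargo receptor Lman1 at -0.18 ± 0.10. The calcium store list had -0.03 over 15. Its member of lowest p was Atp2c1, which pumps calcium and manganese into the Golgi and read 1089, 978 and 670.0 in knockout brains and 407, 387 and 497 in wild-type brains (1.04 ± 0.17, adjusted p = 0.153), and it was called without knockout replicate 2 (1.24 ± 0.12, adjusted p = 0.0412). The calcium channel Itpr2 had -0.36 ± 0.17. Heat shock proteins of cytosol and mitochondria had a median of 0.04 over 34 genes, with 20 higher and 14 lower means and 0 called. Hspa8, the constitutive cytosolic Hsp70, had 0.21 ± 0.08 and the small heat shock protein Cryab -0.45 ± 0.10.

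**Figure D5:**
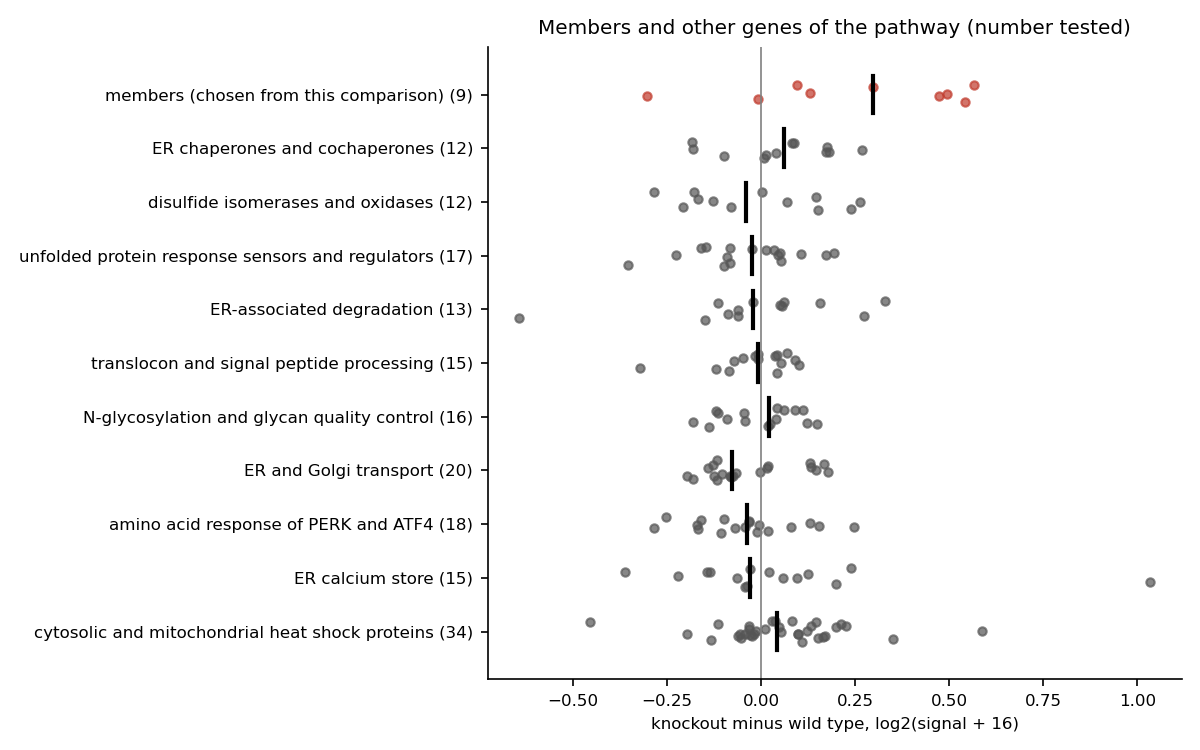
Knockout minus wild-type differences on the log2(signal + 16) scale (x axis) of the 9 compared genes (red, top row, chosen from this comparison) and of the other genes of 10 pathway lists (grey, number tested in brackets), 1 point per gene and a black bar at each median. The medians of the other lists lie between -0.08 and 0.06, and Atp2c1 is the point at 1.04.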

How the data were processed

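Total RNA of 6 mouse brains was labelled with biotin and hybridised, 1 brain to a one-colour Affymetrix array, per the labels' protocols. The authors deposited linear signal intensities for each probe set, and the submitters' processing notes name GCOS 1.4. From the values, the authors appear to have scaled each array to one target, since a mean that leaves out the top and bottom 2% of intensities came to 300.2 on each array. The algorithm behind the signal is not stated in the sources used here. Precision is limited by the number of arrays, with a median standard error of 0.12 for a genotype difference.

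After 66 control entries were set aside, 12422 probe sets remained, and 10833 had 1 gene symbol in the platform annotation. Values were taken as log2(signal + 16), which understates folds of dim genes. Probe sets with a mean at or above the 40th percentile (signal 72.2) were kept, 7453 in all. limma 3.58.1 in R 4.3.3 (lmFit, eBayes with intensity trend, two-sided) gave genotype, age and interaction differences, with p adjusted by Benjamini and Hochberg over all kept probe sets and a threshold of 0.05. The procedure was tested on simulated data. One probe set per gene, the brightest, stands for a gene unless others are given.

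The members and lists were chosen with earlier results of these data known. The rule for naming genes takes all member probe sets, the 2 genes of lowest p in each pathway list, Ncam1, the 5 probe sets most like Hspa5 and a few tissue markers. Alternatives were each array left out in turn, the 2-month-old mice alone, a covariate for age, a block for the replicate number, 2 other scalings, pseudocounts of 1 and 64, 2 other filters, no trend and array weights. Correlations of deviations between same-numbered arrays were 0.01, 0.15 and 0.20, so the numbers were not taken as pairs. The promoter motifs were textbook consensus letters entered by hand, not taken from the deposited files or the RefSeq tables. Figures were drawn with matplotlib 3.10.9.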

Additional observations from a re-analysis of the deposited data

Results flagged for a closer look

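The test that asks whether the knockout difference at 3 months differs from that at 2 months called 2 probe sets, and neither belongs to the endoplasmic reticulum genes. Ada, adenosine deaminase, read 422 at 3 months and 70.8 and 82.4 at 2 months in knockout brains, against 95.6 at 3 months and 311 and 249 at 2 months in wild-type brains. Its interaction was 3.64 ± 0.29 on the log2 scale (limma adjusted p = 0.0294). The other probe set has no single gene symbol and had an interaction of 2.82 ± 0.23 (adjusted p = 0.0294). Both rest on 1 animal per genotype at 3 months, and 0 probe sets were called with no filter or with no intensity trend.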

How the results depend on the processing

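The member differences, whose sign the choice of genes helped to set, had one sign for Hspa5 (0.35 to 0.57), Pdia3 (0.35 to 0.69), Pdia4 (0.41 to 0.69), Creld2 (0.36 to 0.65), Xbp1 (0.19 to 0.41), Hsp90b1 (0.04 to 0.14) and both Canx probe sets (-0.38 to -0.23 and -0.24 to -0.13) over the 12 alternatives that can move a difference. The other 5 of 17 (the replicate block, age as a covariate, both filters and no intensity trend) leave a mean difference of this balanced design as it is, where the probe set is kept. The stricter filter drops the dimmer Canx probe set. Manf was -0.03 without knockout replicate 3 and 0.31 without knockout replicate 1, and 2 of the 3 Pdia6 probe sets took both signs. The median over the 9 genes was 0.19 without knockout replicate 3 and 0.41 without knockout replicate 1, and 0 member probe sets were called by genotype under any alternative. The count of probe sets called by genotype was 2. It was 1 with quantile normalisation, median centring, no filter or no intensity trend, 3 with the 2-month-old animals alone, 4 with array weights, and 1 to 2 with an array left out. The replicate block gave 2 called probe sets, and the replicate numbers were not shown to pair the animals. For other genes of the pathway the count was 0, and 0 to 1 with an array left out. The count called by age was 2, and 1 with no filter and 0 with no intensity trend. The count called by interaction was 2. It was 3 with median centring or a pseudocount of 1, 1 with the stricter filter, and 0 with no filter or no intensity trend. The cause of these shifts was not tested.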
